A study of Mus musculus with 5 samples.

Results

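The regions described here are H3K27ac peaks whose summit lies close to the ends of several genes at once, as at divergent promoters and in tightly packed genes. They were chosen by position: a peak on chromosomes 1 to 19, narrower than 4000 bp, with its summit within 1 kb of an end of each of 2 or more different protein-coding genes. There were 1261 such shared peaks among the 22948 peaks of the list. The number depends on the rule, with 633 for summits within 500 bp and 2007 within 2.5 kb. The 1261 peaks made up 5.58% (exact 95% binomial interval 5.28 to 5.88) of the peaks on chromosomes 1 to 19. They made up 17.6% (16.7 to 18.5) of the peaks under 4000 bp at any protein-coding gene end, the other 5893 lying at an end of 1 gene (one-end peaks). H3K27ac is acetylation of lysine 27 of histone H3. It was mapped by ChIPmentation, in which the Tn5 transposase inserts sequencing adapters into the precipitated chromatin. The cells were mouse bone marrow cells sorted as CD45.2+Lineage-Sca1+Kit+ and named HSC/MPP in the labels, that is, blood stem cells and multipotent progenitors. All 4 H3K27ac libraries (dko_H3K27ac) and the 1 Input library carried the genotype Mll3/4 deleted, so no library of another genotype entered any value here. The labels used here give no age, strain or driver of the deletion, and do not say whether the libraries came from separate animals.

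The list is 1 set of peaks for the 4 libraries together, without values of single libraries. No replicate error and no test between samples could therefore be had, and every difference below is a description of this list. Intervals are 95% intervals over peaks, genes or gene pairs. They cover counting error only, since peaks and genes are not replicates of the cells. The signal value of a peak is the authors' enrichment ratio over background and its q-value is the authors' adjusted p-value. Both rank and describe peaks within this list only. Read totals were not given in the sources used here, so the depth is unknown. Of 6 markers of the sorted cells, 4 had a peak at a gene end, namely Ptprc (signal value 10.8), Flt3 (6.58), Kit (5.66) and Cd48 (2.45), and Ly6a and Cd34 had none. Of 9 genes of cells that the lineage gate removes, 1 had a peak. A missing peak does not show that the mark was absent, and the part of other cells in the shared peaks was not tested.

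Genes often lie head to head, with starts on opposite strands and a short stretch of DNA between them that serves both. Such divergent promoters are mostly rich in CpG, are typically free of nucleosomes at the starts, and carry acetylated nucleosomes on the flanks that face into the genes. They are common among housekeeping genes, such as those for DNA repair and mitochondrial proteins. The genes labelled as deleted, Mll3 (now Kmt2c) and Mll4 (now Kmt2d), make histone methyltransferases known mainly from enhancers. In the text below, a divergent pair has starts pointing away from each other without overlap, and overlapping heads are divergent genes whose first parts overlap. A far end is the end of a gene opposite to its start.

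The promoters of the 3 strongest shared peaks between 2 starts, and of 2 textbook pairs, Hspd1/Hspe1 and Surf1/Surf2, show what these windows look like. Each runs from 250 bases before to 50 bases after a gene's start, 5′ to 3′ on the gene's own strand, from RefSeq promoters of GRCm38.p6. Capitals mark matches to the 10 short motifs counted further down, on either strand, and matches that touch run together. The window of Babam2 lies at chr5:31697800-31698099 on the + strand, that of Tmem203 at chr2:25255189-25255488 on the + strand, and that of St7l at chr3:104864256-104864555 on the + strand. Those of Hspd1 and Hspe1 lie at chr1:55087883-55088182 on the - strand and chr1:55087898-55088197 on the + strand, so they are largely the same DNA read from both sides. Those of Surf1 and Surf2 lie at chr2:26916481-26916780 on the - strand and chr2:26916158-26916457 on the + strand.
Babam2: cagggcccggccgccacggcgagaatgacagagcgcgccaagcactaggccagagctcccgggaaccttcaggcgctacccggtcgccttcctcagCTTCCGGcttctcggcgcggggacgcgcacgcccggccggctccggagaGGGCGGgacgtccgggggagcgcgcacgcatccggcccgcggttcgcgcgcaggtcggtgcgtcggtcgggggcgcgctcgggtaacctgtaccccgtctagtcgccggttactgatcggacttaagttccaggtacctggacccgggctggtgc
Tmem203: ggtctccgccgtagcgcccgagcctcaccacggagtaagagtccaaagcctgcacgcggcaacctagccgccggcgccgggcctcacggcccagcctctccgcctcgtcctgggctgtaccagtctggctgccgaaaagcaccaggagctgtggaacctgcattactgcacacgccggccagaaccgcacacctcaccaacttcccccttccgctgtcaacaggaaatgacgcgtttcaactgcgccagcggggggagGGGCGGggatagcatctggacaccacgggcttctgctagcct
St7l: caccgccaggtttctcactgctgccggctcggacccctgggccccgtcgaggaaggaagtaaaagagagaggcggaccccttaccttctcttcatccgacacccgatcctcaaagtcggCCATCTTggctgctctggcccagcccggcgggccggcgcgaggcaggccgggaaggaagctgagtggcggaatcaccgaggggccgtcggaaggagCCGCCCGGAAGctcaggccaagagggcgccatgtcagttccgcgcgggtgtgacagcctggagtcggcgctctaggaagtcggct
Hspd1: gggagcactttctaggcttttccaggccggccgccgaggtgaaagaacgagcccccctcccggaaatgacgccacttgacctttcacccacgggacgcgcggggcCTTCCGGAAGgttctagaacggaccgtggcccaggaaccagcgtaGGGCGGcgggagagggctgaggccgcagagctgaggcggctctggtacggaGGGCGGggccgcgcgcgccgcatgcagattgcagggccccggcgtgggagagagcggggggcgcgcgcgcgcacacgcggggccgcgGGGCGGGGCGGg
Hspe1: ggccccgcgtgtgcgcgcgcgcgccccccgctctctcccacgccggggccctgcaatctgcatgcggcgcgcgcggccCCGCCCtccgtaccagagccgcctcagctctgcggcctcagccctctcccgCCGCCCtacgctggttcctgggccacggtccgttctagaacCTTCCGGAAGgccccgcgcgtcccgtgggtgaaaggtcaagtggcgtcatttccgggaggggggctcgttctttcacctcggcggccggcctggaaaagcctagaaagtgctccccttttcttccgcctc
Surf1: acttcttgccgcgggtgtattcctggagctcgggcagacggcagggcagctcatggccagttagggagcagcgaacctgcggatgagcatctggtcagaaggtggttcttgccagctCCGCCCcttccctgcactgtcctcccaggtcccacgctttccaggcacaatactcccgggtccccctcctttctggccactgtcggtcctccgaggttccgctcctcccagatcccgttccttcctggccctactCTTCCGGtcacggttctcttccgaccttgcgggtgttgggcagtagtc
Surf2: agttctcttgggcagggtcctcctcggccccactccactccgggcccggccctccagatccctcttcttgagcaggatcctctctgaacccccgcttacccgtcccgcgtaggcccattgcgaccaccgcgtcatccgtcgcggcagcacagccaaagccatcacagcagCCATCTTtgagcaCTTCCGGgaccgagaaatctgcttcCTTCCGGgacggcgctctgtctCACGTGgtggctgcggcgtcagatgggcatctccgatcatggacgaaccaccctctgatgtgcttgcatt

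All 7 windows hold a GC box, an ETS match or both. The Hspd1 window has 4 GC boxes (GGGCGG) and 2 ETS matches (CCGGAAG), and the Hspe1 window has 2 of each. In both windows the 2 ETS matches overlap in 1 palindrome, CTTCCGGAAG, counted on each strand, and it is the same DNA in both. Surf2 has 2 ETS matches, 1 YY1 match (AAGATGG) and 1 E-box (CACGTG), whereas Surf1 has 1 GC box and 1 ETS match. St7l has 1 GC box, 1 ETS match and 1 YY1 match, Babam2 1 GC box and 1 ETS match, and Tmem203 1 GC box alone. The observed over expected CpG ratio is 1.12 at Babam2, 0.994 at Hspd1, 0.976 at Hspe1, 0.833 at St7l, 0.814 at Surf2, 0.786 at Tmem203 and 0.588 at Surf1. These letters are a description of the windows and not evidence of a bound factor.

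Most shared peaks lay where 2 genes start. Taking the 2 gene ends nearest the summit, 512 peaks (40.6%) were at divergent pairs, 247 (19.6%) at overlapping heads and 28 (2.22%) at starts on the same strand. Another 181 (14.4%) were at a start and the far end of a neighbour, and 12 (0.952%) at 2 far ends. In the remaining 281 (22.3%) the strand of at least 1 gene was not assigned. Of the 980 with both strands, 787 (80.3%, interval 77.7 to 82.8) were thus between or at 2 starts. All but 28 shared peaks touched exactly 2 genes, and those 28 touched 3. Together they joined 1063 gene pairs and 2113 genes, 10.2% of the 20661 protein-coding genes on these chromosomes. For comparison, 33.8% of those genes had an end at a shared or a one-end peak. The share of gene-end peaks that were shared ran from 11.5% on chromosome 18 to 22.3% on chromosome 2.

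The genome holds many more close gene ends than carried a peak, and the share with a peak differed by arrangement. Ends of different protein-coding genes lay at most 1 kb apart in 3467 pairs, and 30.2% (28.7 to 31.8) had a peak summit within 1 kb of both. At divergent pairs this share was 73.6% (69.8 to 77.2, 416 of 565), at overlapping heads 65.5% (59.9 to 70.8, 201 of 307) and at same-strand starts 67.6% (50.2 to 82.0, 25 of 37). It was 27.6% (23.8 to 31.5, 148 of 537) at a start next to a far end and 2.27% (1.33 to 3.604, 17 of 750) at 2 far ends. A start with no other gene end within 1 kb had a peak in 27.9% of cases (27.2 to 28.7, 3869 of 13859), and such a lone far end in 1.77% (1.56 to 2.006). A pair asks for a summit near both ends, which is a narrower window than around 1 end. With a summit near either end, the share at a start next to a far end was 37.2% (33.1 to 41.5), and at divergent pairs it was 76.6% (72.9 to 80.1). That count in turn searches a wider stretch than around a lone start, so neither count of pairs is on an equal footing with lone ends. The 3 arrangements with 2 starts stood well above lone starts by both counts. Another 1271 of the 3467 pairs had a gene without an assigned strand and are outside this comparison, with a peak near both ends in 18.9% (16.8 to 21.1).

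**Figure D1:**
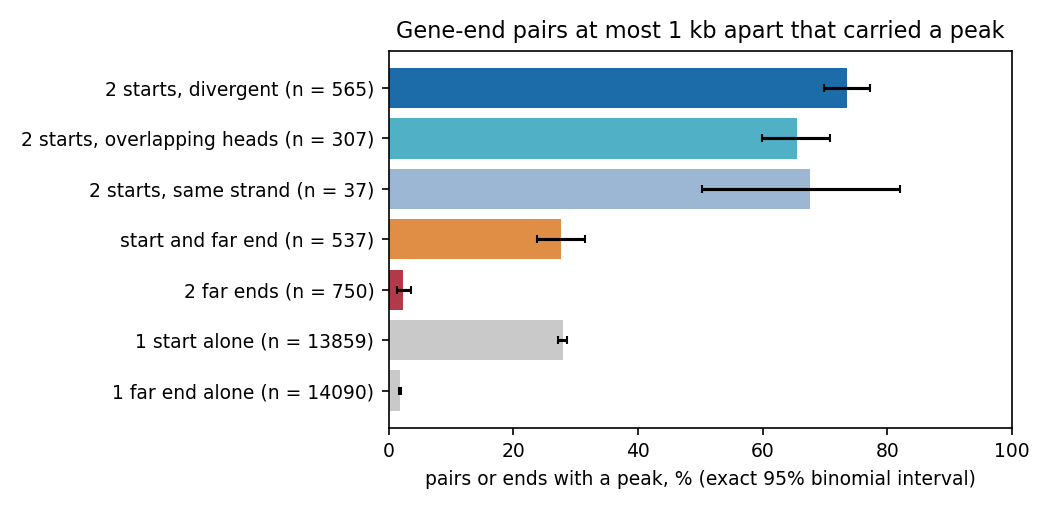
Percent of gene-end pairs at most 1 kb apart with a peak summit within 1 kb of each end (horizontal axis), by arrangement, with lone starts and lone far ends in grey; bars are shares and lines exact 95% binomial intervals over pairs or ends. Divergent pairs stand at 73.6%, a start next to a far end at 27.6% and 2 far ends at 2.27%.

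Divergent pairs and lone starts both had a peak more often at higher CpG ratios, and divergent pairs had the higher share in each of 4 classes. The part of CpG content in the difference was not tested. Below a CpG ratio of 0.4, 27.3% (10.7 to 50.2, n = 22) of divergent pairs and 6.32% (n = 5867) of lone starts had a peak. Between 0.4 and 0.6 the shares were 56.5% (43.3 to 69.0) and 24.2% (22.2 to 26.3). Between 0.6 and 0.8 they were 71.2% (63.4 to 78.1) and 41.5% (39.6 to 43.4). At 0.8 or more they were 81.2% (76.6 to 85.3) and 55.0% (53.3 to 56.6). With the distance between divergent starts the share varied less, up to 500 bp. Of pairs with starts at most 100 bp apart 78.6% had a peak, against 74.4% at 101 to 200 bp, 68.3% at 201 to 300 bp and 85.5% at 301 to 500 bp. At 501 to 1000 bp the share with 1 summit near both starts was 31.0% (17.6 to 47.1, n = 42), and 61.9% had a summit near either start.

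The shared peaks covered a wide range of strength and were slightly stronger, in the median, than one-end peaks. Their median signal value was 4.50 (4.31 to 4.62), with quartiles of 3.36 and 6.15 and a range of 2.03 to 16.8. The one-end peaks had a median of 4.19 (4.13 to 4.23), and peaks at no gene end one of 2.94. The difference between shared and one-end peaks was 0.306 (0.118 to 0.443), and in 53.6% of all pairings of a shared with a one-end peak the shared peak was higher, so both sets overlap almost entirely. When only signal values from 4 upwards were kept, the difference was 0.164 (-0.0401 to 0.398), and with summits taken within 2.5 kb it was 0.0613 (-0.0492 to 0.198), both with intervals that include 0. A q-value of at most 0.05 was reached by 1173 shared peaks (93.0%, 91.5 to 94.4) and by 92.3% of one-end peaks, against a background of 78.8% of the whole list. Among gene-end peaks the share that was shared ran from 15.3% (13.5 to 17.4) at a signal value under 3 to 22.5% (18.9 to 26.6) at 9 or more.

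Levels also differed by arrangement. The median signal value was 5.13 (4.13 to 6.14) at same-strand starts, 4.71 (4.37 to 5.08) at overlapping heads and 4.62 (4.34 to 4.77) at divergent pairs, and the intervals of these 3 overlap. It was 3.95 (3.70 to 4.22) at a start next to a far end and 3.03 (2.51 to 3.42) at 2 far ends. One-end peaks had 4.25 (4.19 to 4.31) at a start and 3.03 (2.88 to 3.24) at a far end. Peaks with 2 starts exceeded those with 1 start by 0.398 (0.204 to 0.592). Peaks at a start next to a far end were below those at 1 start, with a difference of -0.306 (-0.559 to -0.0239). Widths fell in the same order of arrangements, from a median of 1286.5 bp at same-strand starts to 712 bp at 2 far ends. Shared peaks as a whole had a median of 968 bp and one-end peaks 914 bp, a difference of 54 bp (2.38 to 117). With summits taken within 2.5 kb this difference turned to -5 bp (-53.3 to 33.6). Its interval also included 0 with no width limit, at a −log10 q of at least 5 and at signal values from 4 upwards. Divergent pairs had a median width of 935.5 bp and one-end peaks at a start 924 bp, a difference of 11.5 bp (-60.1 to 89.5), while overlapping heads had 1233 bp, which was 297.5 bp (151 to 442) more than divergent pairs.

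**Figure D2:**
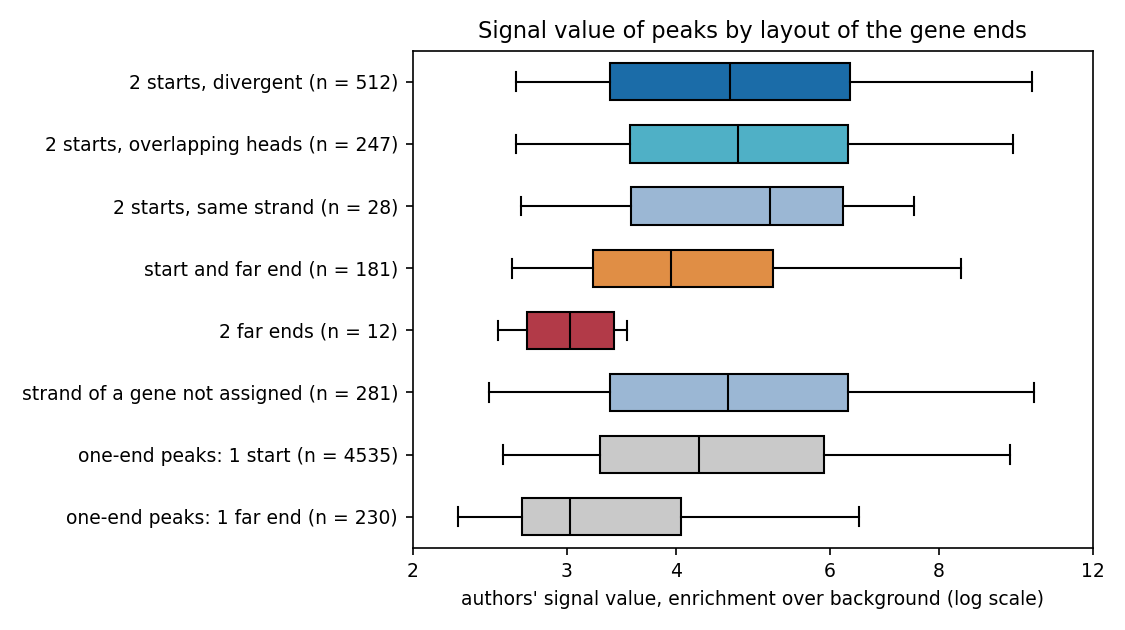
The authors' signal value of peaks (horizontal log axis, enrichment ratio over background) by arrangement of the gene ends; boxes span the quartiles, the inner line is the median and whiskers reach the 5th and 95th percentiles. Medians are 4.62 at divergent pairs, 3.95 at a start next to a far end and 3.03 at 2 far ends, and all boxes overlap widely except those at far ends.

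At divergent pairs the summit was seldom on the DNA between the starts. The starts were a median of 91.5 bp apart, and the summit lay between them in 26 of 512 peaks (5.08%, 3.34 to 7.35) and inside 1 of the 2 genes in the other 486. The distance from the summit to the nearer start had a median of 337 bp, with quartiles of 249 and 465 bp. Summits 101 to 500 bp inside the nearer gene made up 73.4% at divergent pairs and 43.6% of one-end peaks at a start. Of those one-end peaks, 72.9% (71.6 to 74.2) had the summit inside the gene and the rest before it. These shares are not on an equal footing: the DNA before a divergent start belongs to the neighbour after a short gap, so few positions between the starts are available and both genes offer an inside.

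**Figure D3:**
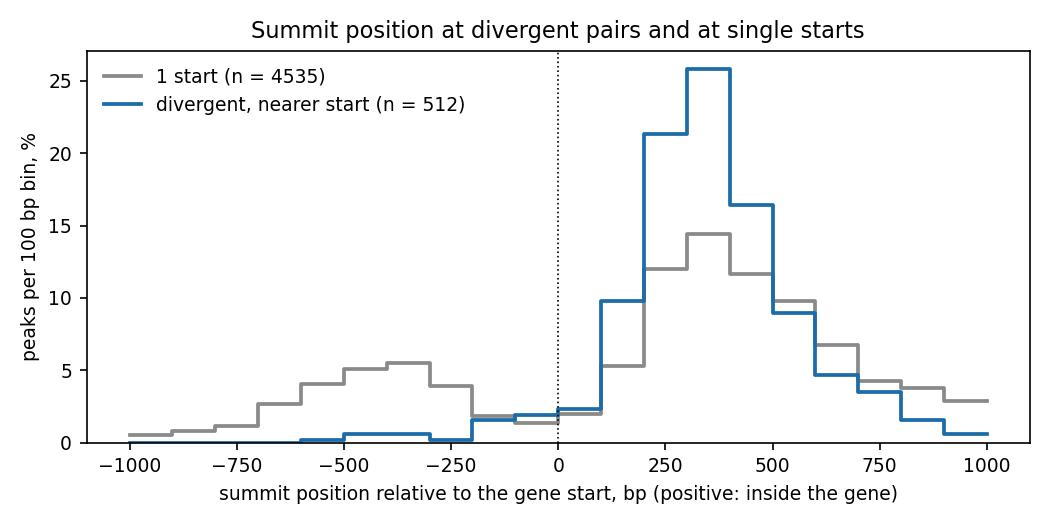
Position of the peak summit relative to a gene start (horizontal axis, bp, positive inside the gene) as percent of peaks per 100 bp bin (vertical axis), for 4535 one-end peaks at 1 start and for 512 divergent pairs measured from the nearer start. The one-end peaks show a smaller upstream hump as well as the downstream one, and 94.9% of divergent summits lie inside the nearer gene.

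Of the 512 peaks at divergent pairs, some covered both starts and others 1 start or none. These are counts of peaks and not of promoters, since a pair can have a peak on each flank. In 162 peaks (31.6%, 27.6 to 35.9) the peak spanned both starts, with a median width of 1858.5 bp and a median signal value of 6.52. Only 1 start was covered in 55 peaks (10.7%), with a median signal value of 5.51. No start was covered in 295 peaks (57.6%, 53.2 to 61.9), which were narrower (667 bp) and weaker (3.64). At a start next to a far end, the summit was nearer the start in 120 of 181 peaks (66.3%, 58.9 to 73.1).

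In 197 of the 1063 gene pairs more than 1 shared peak was called, in most of them with a peak nearest each gene. Of 404 divergent pairs with a shared peak, 107 (26.5%, 22.2 to 31.1) had 2 or more, and in 106 of them each gene had a peak nearest to itself. Summits on both flanks were a median of 887 bp apart, and the stronger peak exceeded the weaker by a median of 1.39 times. Lone starts with a peak had 2 or more in 15.9% of cases (14.8 to 17.1), against 27.6% (23.4 to 32.2) of divergent pairs with ends at most 1 kb apart and 25.9% (20.3 to 32.2) of those at most 100 bp apart. The flanks differed at several listed pairs. At Brca1/Nbr1 the peak on the side of Nbr1, a receptor of selective autophagy, had a signal value of 9.34, and that on the side of Brca1, a tumour suppressor of homologous recombination, one of 4.10. At Atm/Npat the side of Npat, a regulator of histone gene transcription, had 7.19 and that of the DNA damage kinase Atm 4.50. Further examples, chosen after their values were seen, were Cct3 (a subunit of the cytosolic chaperonin) with 6.82 against 3.22 on the Tsacc side, Polh (a polymerase that copies past ultraviolet damage) with 4.53 against 3.21 on the Xpo5 side, and Kbtbd3 with 10.8 against 4.62 on the Aasdhppt side.

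The strongest shared peak, at Babam2/Rbks (chr5:31697087-31699912), had a signal value of 16.8. Babam2 encodes a subunit of the BRCA1-A and BRISC deubiquitinase complexes and Rbks a ribokinase, and their starts are 329 bp apart. Next came Tmem203/Ndor1 with 14.9, St7l/Capza1 with 14.9 and Rps27/Rab13 with 14.1. Ndor1 serves iron-sulfur cluster assembly, Capza1 caps actin filaments, Rps27 is a protein of the small ribosomal subunit and Rab13 a GTPase of membrane traffic. Dpm1/Mocs3 had 14.0, Srpr/Foxred1 13.7, Zfp672/Sh3bp5l 13.5 and Cspp1/Cops5 13.0. Dpm1 makes dolichol-phosphate mannose, Srpr is a receptor subunit for the signal recognition particle, and Cops5 is the catalytic subunit of the COP9 signalosome. Prpf4/Cdc26, a splicing factor next to a subunit of the anaphase-promoting complex, had 12.6, and Cript/Pigf had 12.5. Of the 11 with assigned strands (all but Cspp1/Cops5), 2 combined a start with a far end: Slc35g3/Polr2a (12.9), with Polr2a encoding the largest subunit of RNA polymerase II, and Nectin4/Arhgap30 (12.5). In both, the summit lay between the ends and the start belonged to Polr2a and to Arhgap30, a GTPase-activating protein.

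At the other end, the 5 weakest shared peaks had signal values of 2.03 to 2.17. They lay at Aida/Brox, Car7/Nae1, Gm12500/Ampd2/Gnat2, Wdr83os/Man2b1 and Slc39a6/Elp2, with widths of 264 to 520 bp. None of the 5 had a q-value of 0.05 or less. The strongest peaks with 3 genes were BC029722/Mmp24/Eif6 (6.98), Gm20517/Med20/Bysl (6.79), Naa80/Hyal3/Hyal1 (6.14), Ak6/Taf9/Rad17 (5.60) and Cab39l/Gm45935/Setdb2 (5.39). Among these, the starts of Gm20517 and Med20, of Ak6 and Taf9, and of Gm45935 and Setdb2 lie at equal distances from the summit (263, 51 and 343 bp). The thresholds fell among ordinary peaks. The widest members were 3848, 3771 and 3585 bp (Gm10840/Limd2, Gm20783/LOC108167694 and Git2/Ankrd13a). Just too wide were Evi2/Evi2a (4035 bp), Hnrnpa2b1/Cbx3 (4076 bp) and Tor1aip1/Tor1aip2 (4102 bp), and 10 wide peaks in all would otherwise have counted. In distance, Mapk14/Slc26a8 (1000 bp), Mri1/Ccdc130 (1000 bp) and Cdk11b/Slc35e2 (998 bp) were just inside, and Cep57l1/Sesn1 (1002 bp), Mcee/Mphosph10 (1003 bp) and Rdh14/Nt5c1b (1004 bp) just outside.

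Of 15 gene pairs listed as known or typical bidirectional promoters, 12 had a shared peak. Over all pairs at most 1 kb apart the share was 73.6% (69.8 to 77.2) at divergent pairs and 65.5% (59.9 to 70.8) at overlapping heads. The count is near the share of divergent pairs and does not set the listed pairs apart. The strongest of the 12 was Hspd1/Hspe1, which encodes the mitochondrial chaperonin and its lid, with 11.4 (chr1:55086550-55089318). Gart/Son, a purine synthesis enzyme next to a splicing cofactor, had 10.2, and Mrps12/Sars2, a ribosomal protein and a tRNA synthetase of mitochondria, had 7.13. Pdcd10/Serpini1 had 6.46 on the Pdcd10 side, and a one-end peak at Serpini1 had 2.94. Prkdc/Mcm4, a DNA repair kinase and a subunit of the replicative helicase, had 5.72. Surf1/Surf2 had 4.86, Trp53/Wrap53 4.59, Hars/Hars2 3.92 and Sirt3/Psmd13 3.15. The pairs Brca1/Nbr1 and Atm/Npat given above are also among the 12. No peak was called at Ppat/Paics, although both make purines as Gart does, nor at the collagen pair Col4a1/Col4a2. At Tap1/Psmb9 the only peak, 3.46, was a one-end peak at the far end of Tap1.

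The lists differed in how many of their genes had an end at a shared peak. The lists and their members were chosen with results of these data known, so the counts are descriptions and no list is singled out by a test. Against 10.2% of all protein-coding genes, 28 of 57 replication-dependent histone genes (49.1%, 35.6 to 62.7) and 16 of 38 DNA replication and repair genes (42.1%, 26.3 to 59.2) had an end at a shared peak. The 28 histone genes lay at 17 shared peaks, 16 of them with at least 2 genes of the list. Genes at the same peak are not independent, so the interval is too narrow. Of the repair genes, Brca1, Atm, Prkdc, Mcm4, Msh3 and Trp53 also belong to the listed pairs above, as do the chaperones Hspd1 and Hspe1. The shares of both lists depend in part on that choice. The counts were 30 of 78 (38.5%, 27.7 to 50.2) for mitochondrial ribosomal proteins, 8 of 22 (36.4%, 17.2 to 59.3) for chaperones, 12 of 37 (32.4%, 18.01 to 49.8) for aminoacyl-tRNA synthetases and 28 of 93 (30.1%, 21.0 to 40.5) for oxidative phosphorylation. They were 16 of 72 (22.2%, 13.3 to 33.6) for cytosolic ribosomal proteins, 9 of 48 (18.8%, 8.95 to 32.6) for the proteasome and 31 of 360 (8.61%, 5.93 to 12) for zinc fingers. None of 20 stem cell genes, 20 myeloid genes or 19 B-cell genes had one, which allows shares of up to 16.8%, 16.8% and 17.6%. These limits, and the intervals of the proteasome, zinc finger and MLL lists, include the share of all genes, so these lists are not set apart from it. Among peaks with a −log10 q of at least 5 the histone genes stood at 31.6% (19.9 to 45.2), below the DNA replication and repair genes (36.8%, 21.8 to 54.0) and the chaperones (36.4%). In that stricter list the synthetases stood at 16.2% (6.19 to 32.0), the proteasome at 10.4% (3.47 to 22.7) and all genes at 7.004%.

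These shares ran beside how often a gene has a close neighbour at all. Another protein-coding gene end within 1 kb was present for 25.6% of all genes, 71.9% of the histone genes, 57.9% of the DNA replication and repair genes and 56.4% of the mitochondrial ribosomal proteins. It was present for 15.0% of the stem cell, 10.0% of the myeloid and 0 of the B-cell genes. Among genes with such a neighbour, 38.7% (37.4 to 39.99) of all genes had a shared peak, 72.7% (49.8 to 89.3, 16 of 22) of the DNA replication and repair genes, 70.6% (44.0 to 89.7, 12 of 17) of the aminoacyl-tRNA synthetases and 68.2% (52.4 to 81.4, 30 of 44) of the mitochondrial ribosomal proteins. It was 66.7% (34.9 to 90.1, 8 of 12) for the chaperones, 61.5% (40.6 to 79.8, 16 of 26) for the cytosolic ribosomal proteins, 58.5% (42.1 to 73.7, 24 of 41) for the histones and 54.9% (40.3 to 68.9, 28 of 51) for oxidative phosphorylation. The zinc fingers, below all genes in the plain share, stood at 57.7% (43.2 to 71.3, 30 of 52), and the proteasome at 36.8% (16.3 to 61.6, 7 of 19). With 0 of 3 stem cell and 0 of 2 myeloid genes, and no B-cell gene with such a neighbour, these lists hold too few genes for a share. One-end peaks alone held a further 3 stem cell (15.0%), 2 myeloid (10.0%) and 5 B-cell genes (26.3%). Over all protein-coding genes this share was 23.6%, so these counts do not set the lists apart. Peaks of 4000 bp or wider are in neither set, so a gene outside these counts may still have carried a wide peak. Of the 6 markers of the sorted cells, 4 had a peak at a gene end, but 3 were at a one-end peak and 0 at a shared peak.

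**Figure D4:**
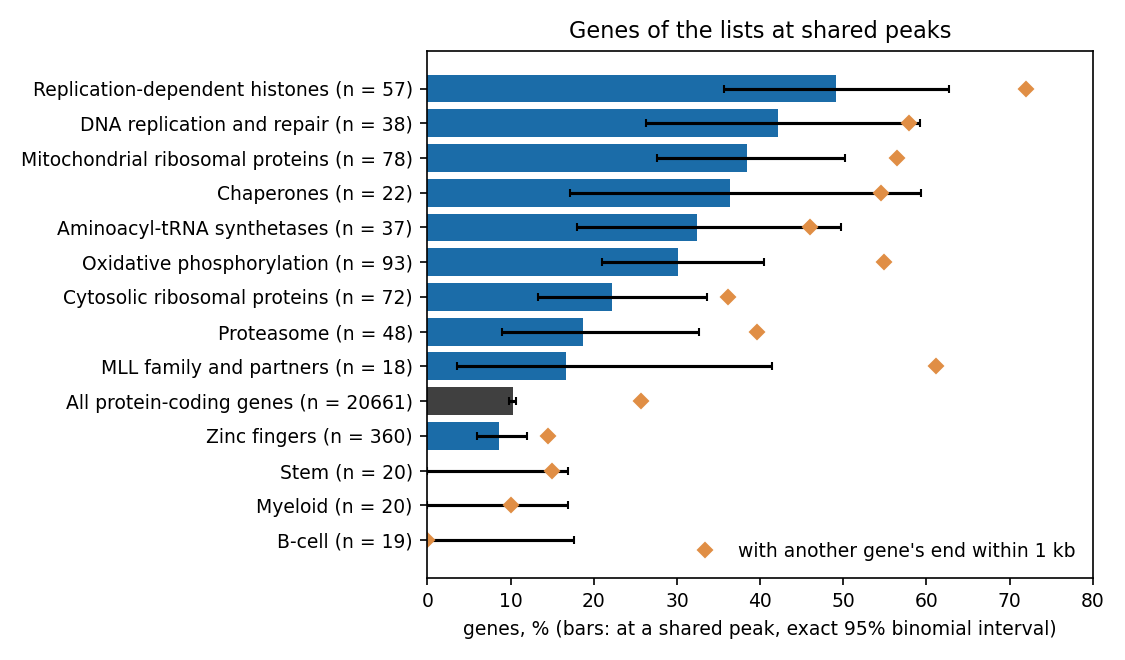
Percent of the genes of each list with an end at a shared peak (bars, horizontal axis, with exact 95% binomial intervals over genes as lines) and with another protein-coding gene end within 1 kb (diamonds). The histone genes reach 49.1% and all genes 10.2%, the stem, myeloid and B-cell lists are at 0, and lists with more close neighbours mostly have longer bars, the MLL list being an exception.

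Within the lists the genes at the strongest shared peaks were as follows. In DNA repair they included Xrcc1 (with Pinlyp, 11.1), a scaffold of single-strand break repair, and Mre11a (with Ankrd49, 9.52), a nuclease at double-strand breaks. The chaperones were led by Hspd1 and Hspe1 (11.4) and by Hsp90b1 (with Ttc41, 10.2), the HSP90 of the endoplasmic reticulum. Cytosolic ribosomal proteins were led by Rps27 (14.1), Rpl9 (with Lias, 10.6) and Rps28 (with Ndufa7, 10.3). The Rps28 peak is also that of Ndufa7, a subunit of respiratory complex I, which came after Atp5md (with Pdcd11, 11.4) and before Ndufb1 (with Cpsf2, 9.92) among the oxidative phosphorylation genes. Mitochondrial ribosomal proteins were led by Mrpl38 (with Trim65, 7.99), Mrps12 (with Sars2, 7.13) and Mrpl2 (with Cul7, 6.94).

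The aminoacyl-tRNA synthetases included Sars2 (7.13) and Ears2 (with Ubfd1, 6.52), both of mitochondria. The proteasome genes were led by Psma2 (with Mrpl32, 6.24), Psmg2 (with Cep76, 5.51) and Psma7 (with Ss18l1, 4.96). The zinc fingers were led by Zfp672 (13.5), Zfp706 (11.4) and Zfp91 (with Lpxn, 9.80). Histone genes were led by H2bc6 (with the linker histone gene H1f4, 11.9) and by H3c1 and H4c1, which shared 1 peak (10.3). Histone genes also paired with each other: 13 gene pairs at shared peaks consisted of 2 histone genes of the list. There were 5 such pairs among the zinc fingers and 1 each in the DNA repair, chaperone, mitochondrial ribosomal and synthetase lists, the last 2 being Mrpl46/Mrps11 and Hars/Hars2. Histone genes are short and nearly identical copies lie side by side, so a summit within 1 kb often takes in a far end, and the values at such copies are uncertain.

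One of the genes labelled as deleted was itself a member by position. The peak at Prkag1/Kmt2d (chr15:98830732-98832470, signal value 5.60) had its summit 427 bp from the start of Prkag1, a regulatory subunit of AMP-activated kinase, and 588 bp from the far end of Kmt2d. It therefore lay at the end and not at the start of Kmt2d, and says nothing on whether the gene was deleted. In the list of the MLL family and its partners, 3 of 18 genes (16.7%, 3.58 to 41.4) had a shared peak. The second was Pagr1a, whose product belongs to the Mll3/4 complexes, again with its far end 877 bp from the summit and the start of Mvp, the major vault protein, 420 bp away (5.55). The third was Setd1b (with Rhof, 2.72), a methyltransferase of the same family. In this list 61.1% of the genes had another gene end within 1 kb, and 27.3% (6.02 to 61.0, 3 of 11) of those had a shared peak.

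Promoter windows were available for 1498 gene starts at shared peaks, 3827 starts at one-end peaks and 32851 starts of all kinds. Windows at shared peaks were rich in CpG, with a median ratio of 0.861 (0.849 to 0.872) against 0.814 (0.806 to 0.823) at one-end peaks and 0.384 over all windows. The difference between shared and one-end starts was 0.0469 (0.0318 to 0.0610). A ratio of at least 0.6 was found in 89.1% (87.4 to 90.6) of windows at shared peaks, 92.2% of those of divergent pairs, 79.6% of those next to a far end, and 81.4% (80.1 to 82.6) at one-end peaks. The G+C content hardly differed, with medians of 62.3% and 61.7% and a difference of 0.667 points (-0.0787 to 1.14). Signal values rose with CpG in both sets. In 3 classes of CpG ratio, parted at 0.739 and 0.909, the windows at shared peaks had median signal values of 4.54, 4.83 and 5.29, and those at one-end peaks 4.28, 4.41 and 4.88. Each window took the value of its gene's strongest peak in that set, and a shared peak counted once for each of its genes. These are thus not medians over peaks. Divergent pairs had 2 or more peaks more often than lone starts, so the sets are not on an equal footing. The 2 windows of a divergent pair overlap where the starts are close, so such windows are not independent of each other.

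The 10 motifs were searched as exact letters on both strands, none contains another, and neighbouring matches may share bases. The ETS core CCGGAAG was the motif whose share differed most between the sets in percentage points. It stood in 31.0% (28.7 to 33.5) of windows at shared peaks, 21.7% of those at one-end peaks and 8.86% of all windows. The order was the same in the classes of low, middle and high CpG, with 24.5%, 32.4% and 34.2% at shared peaks against 16.6%, 24.3% and 25% at one-end peaks. The palindrome CTCGCGAG stood in 3.81% (2.89 to 4.90), 2.30% and 0.919%. The YY1 letters AAGATGG stood in 9.68% (8.23 to 11.3), 8.34% (7.48 to 9.26) and 6.34%. By arrangement they stood in 13.1% (10.8 to 15.7) of the windows of divergent pairs and 6.52% (4.30 to 9.40) of those of overlapping heads. At a start next to a far end it was 6.37% (3.10 to 11.4). The ZNF143 letters ACTACAA stood in 6.07% (4.92 to 7.41), 4.68% (4.03 to 5.39) and 3.24%. For the YY1 and ZNF143 letters the intervals of shared and one-end peaks overlap.

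For the other motifs the intervals of shared and one-end peaks overlapped too. Among them the GC box and the TATA letters were somewhat rarer at shared peaks, and the rest differed less. The GC box GGGCGG was in 67.0% (64.6 to 69.4) of windows at shared peaks and 69.4% (67.9 to 70.9) at one-end peaks, and in 35.7% of all windows. The CCAAT box, spelled CCAAT, was in 39.6%, 38.4% and 37.4%. The NRF1 letters GCATGCGC were in 6.81%, 6.95% and 2.71%, the E-box CACGTG in 11.5%, 11.1% and 7.15%, and the cyclic AMP response element TGACGTCA in 4.94%, 4.68% and 1.79%. The TATA letters TATAAA were rarer at shared peaks (5.07%, 4.02 to 6.31) than over all windows (13.6%), with 6.61% (5.84 to 7.44) at one-end peaks. By arrangement, the GC box was in 69.8% (66.5 to 73.1) of windows of divergent pairs and 61.2% (56.2 to 66.0) of those of overlapping heads. It was in 68.2% (60.3 to 75.4) of those of a start next to a far end. For the CCAAT box these shares were 42.3% (38.7 to 45.8), 33.1% (28.5 to 37.9) and 39.5% (31.8 to 47.6). Where the windows of a pair overlap, the same bases count 2 times in the shared set.

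**Figure D5:**
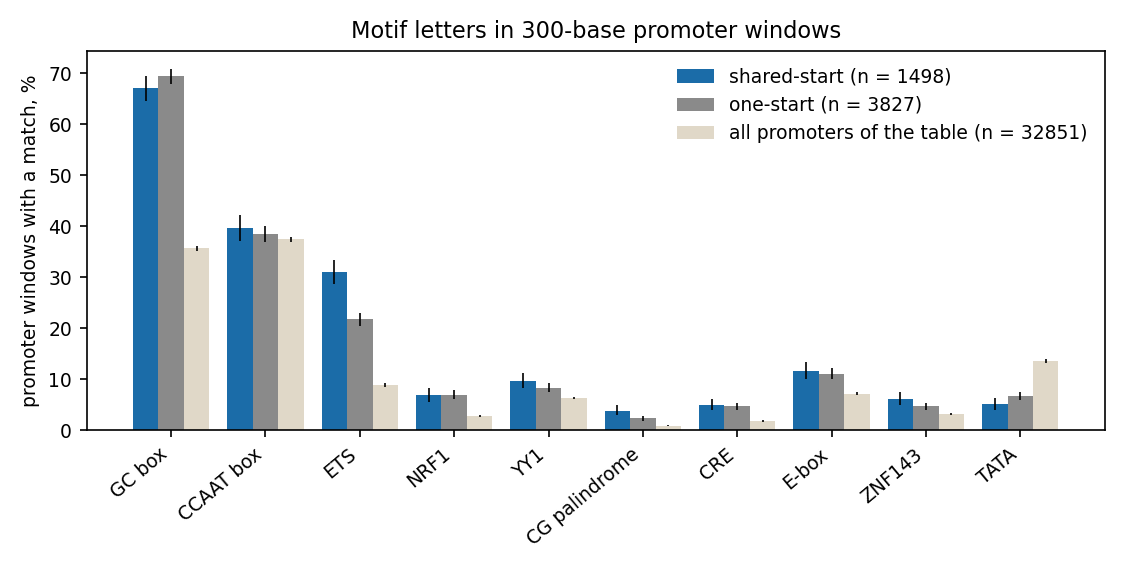
Percent of 300-base promoter windows (vertical axis) with at least 1 exact match to each of 10 motifs (horizontal axis), at starts of shared peaks (blue), at starts of one-end peaks (grey) and over all windows (beige); lines are exact 95% binomial intervals over windows. ETS letters stand at 31.0% against 21.7%, and the GC box at 67.0% against 69.4%.

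The surroundings of shared and one-end peaks differed as well. An end of a non-coding gene lay within 1 kb of the summit in 61 shared peaks (4.84%, 3.72 to 6.17) and in 935 one-end peaks (15.9%, 14.9 to 16.8). No other summit lay within 5 kb of 664 shared peaks (52.7%, 49.9 to 55.4) and of 3538 one-end peaks (60.0%, 58.8 to 61.3). Of the genes at shared peaks, 84.6% had a strand assigned, so the layouts rest on most but not all members.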

How the data were processed

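Per the submitters' processing notes, reads were handled with BWA and MACS2 and the build was mm10, which shares coordinates with GRCm38. Settings and versions are not given in the sources used here. The deposited list holds for each peak a score, a signal value, which is the authors' enrichment ratio, and the authors' −log10 p-value and −log10 q-value. The score was not used.

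Members and lists were chosen with earlier results of these data known. Summits, counted 1-based, were set against both ends of 20661 protein-coding genes of RefSeq GRCm38.p6. Strand came from the RefSeq promoter table, by gene ID, for 16456 of them (79.6%). A gene at several shared peaks counts once, and its window is that of its start nearest the summit. The signal value given to a window is that of the gene's strongest peak in the set. Shares have exact (Clopper-Pearson) 95% binomial intervals and medians have binomial order-statistic intervals. Differences combine the distances of both medians to their bounds by square and add. The assignment of members and arrangements, the motif search and the intervals of medians were checked on simulated data, and the other steps were not. Named peaks were the 12 strongest, the 5 weakest, the 5 strongest of those with the most genes, the 3 on each side of a threshold, 15 listed pairs, all with blood or MLL genes, and the 3 strongest members of each other list. Some members that this rule names are not reported here. Alternatives changed the summit distance, the width limit, the strictness of the list and the treatment of coinciding ends. Python 3.11.15, numpy 2.4.6, pandas 2.3.3, scipy 1.17.1 and matplotlib 3.10.9 were used.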

Additional observations from a re-analysis of the deposited data

How the results depend on the processing

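No paired analysis was possible because no column belongs to a single library, and so no library could be left out in turn. Of 132 values recomputed under alternatives, 105 stayed within the error of the value reported or, for counts, within 1.5 times of it. That held for all 40 motif shares and all 3 CpG differences. Depth is unknown, so weak peaks cannot be weighed by reads. The number of shared peaks was 779 at a −log10 q of at least 5, 754 at a signal value of at least 4, 633 with summits within 500 bp and 2007 within 2.5 kb. With 2.5 kb the signal difference between shared and one-end peaks was 0.0613 (-0.0492 to 0.198) and the width difference turned from 54 to -5 bp (-53.3 to 33.6). The interval of the width difference also included 0 with no width limit (50.5 bp, -7.48 to 111) and in the stricter lists (75 bp, -3.79 to 148, and 63 bp, -17.7 to 141). The cause was not tested. The share with a q-value of at most 0.05 was 94.9% at 500 bp and 91.1% at 2.5 kb. The share at 2 starts was 83.8% and 84.6% in the stricter lists, 89.5% at 500 bp and 65.0% at 2.5 kb. Close gene ends with a peak were 34.7% for ends at most 500 bp apart, 23.4% at most 2 kb, 20.6% and 19.9% in the stricter lists, and 33.5% without chromosome 18, where 398 close pairs include ends at the same base. Leaving out that chromosome, and taking only 1 window per peak for motifs, were chosen after seeing the data. Of 48 list shares, 38 stayed within their interval. Those that left it came from the stricter lists and were of the histones (31.6% in both), synthetases (16.2% in both), zinc fingers (5.83% in both), mitochondrial ribosomal proteins (26.9% at a signal value of at least 4) and all genes, which also left it at a q-value of at most 0.05 (9.75%).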

Other observations

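Windows with the cyclic AMP response element TGACGTCA had a median signal value of 5.998 at shared peaks (74 windows) and 4.86 without it (1424 windows). At one-end peaks the medians were 5.94 (179 windows) and 4.41 (3648 windows). Each window took the value of its gene's strongest peak in the set. No other of the 10 motifs had a difference as large as this in both sets, and the values are a description chosen after they were seen.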
